A study of Homo sapiens with 4 samples.

Results

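Mitochondria carry their own small genome, and RNA from it is read here together with the nuclear genes that copy and express it. The group comprised 36 genes, taken by name from the 20263 gene IDs of the count table. Of these, 13 are the protein genes of mitochondrial DNA (mtDNA), whose symbols begin with MT-. The other 23 are nuclear factors chosen for their known roles, 9 in mtDNA transcription, 9 in handling the RNA and 5 in mtDNA replication. They were listed by role, not by their values here, although earlier results of these data were known. RNA was sequenced from MDA-MB-231, an established human triple-negative breast cancer cell line, after 24 h with Neoribocic or with DMSO, the solvent control, with 2 libraries in each group. The treatment protocol calls the compound Rib_CA. The sources used here give no dose. All cells were kept in the same serum-containing medium. The labels do not state that replicate libraries are separate cultures. The p-values thus measure only how far these samples spread, and that spread may be technical.

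The mitochondrial genome encodes core subunits of the respiratory chain and of the ATP synthase, together with the ribosomal and transfer RNAs needed to translate them. A single-subunit RNA polymerase, POLRMT, copies each strand into a long transcript, with TFAM and TFB2M at the promoters. The transfer RNAs between the messages are cut out. Most of the released mRNAs are polyadenylated and bound by the LRPPRC and SLIRP pair, and the mRNAs are in time degraded by the complex of PNPT1 and SUPV3L1. Because the mRNAs of a strand are cut from one precursor, differences in their levels arise after transcription as well as during it.

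In GENCODE release 29, 12 of the 13 protein genes lie on one transcript, called the heavy-strand transcript, and 1, MT-ND6, is read from the opposite, light-strand transcript. Of the 13 genes, 7 encode a complete stop codon and 6 end in a T or TA that polyadenylation completes. Neighbouring genes share more than a base in 2 places, where both are translated from one mRNA, and MT-ATP6 and MT-CO3 share 1 base. The 2 longer shared stretches are shown because reads inside them belong to both genes. They were read from the GRCh38 sequence of GENCODE, 5′ to 3′, and capitals mark the start codon of the downstream gene and the stop codon of the upstream one. The shared stretch of MT-ATP8 and MT-ATP6 is chrM:8527-8572 on the + strand, 46 bases, and that of MT-ND4L and MT-ND4 is chrM:10760-10766, 7 bases.
MT-ATP8 and MT-ATP6: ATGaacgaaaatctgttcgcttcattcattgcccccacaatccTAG
MT-ND4L and MT-ND4: ATGcTAA

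The last 30 bases of 3 mRNAs are also shown, MT-CO2 and MT-ND4 because their parts of the mitochondrial mRNA differ most in percentage points below, and MT-ND6 as the light-strand mRNA. Capitals mark the stop codon, or the part of it that the genome encodes. MT-CO2 ends at chrM:8240-8269 on the + strand with a full TAG. MT-ND4 ends at chrM:12108-12137 on the + strand with a lone T. MT-ND6 ends at chrM:14149-14178 on the - strand with AGG.
MT-CO2: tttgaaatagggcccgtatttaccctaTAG
MT-ND4: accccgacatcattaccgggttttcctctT
MT-ND6: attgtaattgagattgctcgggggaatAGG

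The libraries held 41572094 and 43014212 counts with Neoribocic and 34774542 and 37754168 counts with DMSO (replicates 1 and 2 of each). Of the markers of the line, VIM (vimentin) was at 2804 to 4238 CPM (counts scaled to library size by TMM) in all 4 libraries, while CDH1 (E-cadherin) stayed at or below 0.141 CPM and ESR1 (estrogen receptor) at or below 0.649 CPM. EPCAM and GATA3, expected to be low, reached 9.93 and 21.8 CPM. Among 6 markers of other cell types, CD3E had no counts and PTPRC and PECAM1 did not exceed 0.620 and 1.16 CPM. COL1A1 lay between 5.84 and 8.08 CPM and CD68, which cancer lines can also express, between 157 and 340 CPM. ACTA2 was at 8.55 and 7.41 CPM with Neoribocic and at 1.97 and 3.57 CPM with DMSO, and its part in the results was not tested.

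One library stood apart before any comparison. The 13 mitochondrial genes held 5.76% and 7.24% of all counts with Neoribocic, against 8.68% and 21.7% with DMSO. The mean share was 6.50% ± 1.05 with Neoribocic and 15.2% ± 9.20 with DMSO (SD, n = 2 each). The groups did not overlap, but the DMSO libraries lay farther apart from each other than DMSO replicate 1 lay from the Neoribocic libraries. An exact two-sided permutation test gave p = 0.333, which is the smallest p that 2 libraries against 2 can give. In TPM, which divides each count by transcript length, the share was 12.5% and 17.9% with Neoribocic and 22.9% and 46.4% with DMSO.

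The difference between the DMSO libraries ran through all mitochondrial genes. Each of the 13 was 2.29-fold to 3.61-fold higher in CPM in DMSO replicate 2 than in DMSO replicate 1. Of all 13879 genes tested, 4.32% differed by at least 2-fold in that direction. Among the 23 nuclear factors the same ratio ran between 0.542 and 1.13, so none of them shared the difference. With Neoribocic, the ratio of replicate 2 to replicate 1 was between 0.914 and 1.93 for the 13 mitochondrial genes. What sets DMSO replicate 2 apart was not tested, and the fold changes and shares of the mitochondrial genes are therefore also given without it.

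**Figure D1:**
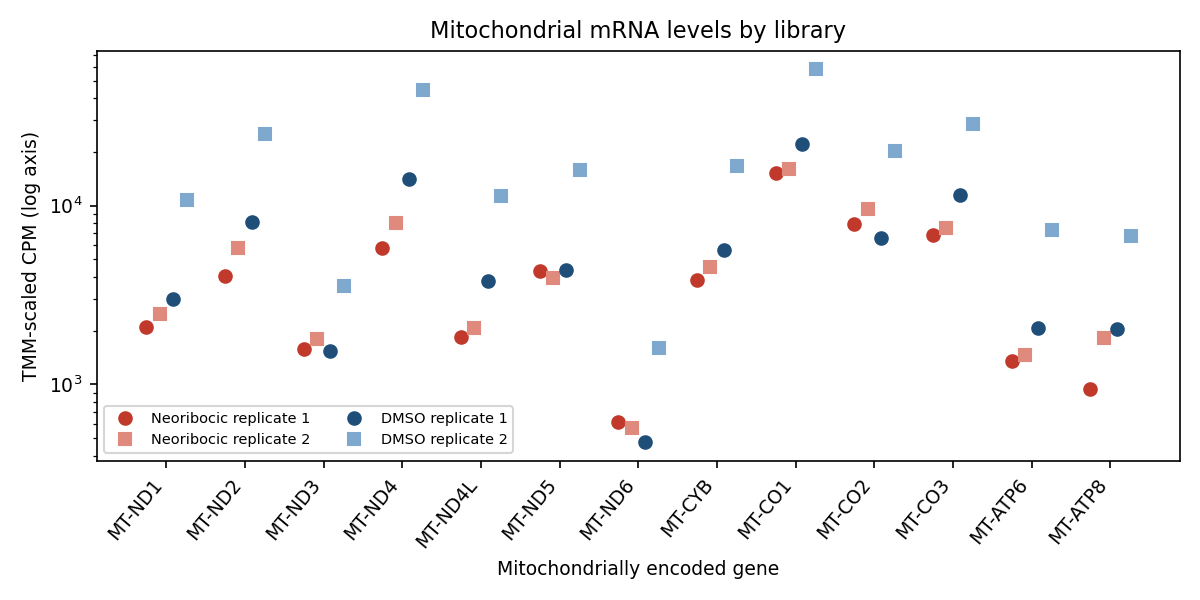
Level of each mitochondrially encoded gene in TMM-scaled CPM on a log axis, 1 point per library (Neoribocic replicates 1 and 2, then DMSO replicates 1 and 2). DMSO replicate 2 is the highest point for every gene, and DMSO replicate 1 lies near or among the Neoribocic points for MT-ND3, MT-ND5, MT-ND6 and MT-CO2.

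With Neoribocic, 4 mitochondrial genes fell, MT-ND4 and MT-ND4L (which share an mRNA), MT-CO1 and MT-CO3, and 9 did not pass the test. These are 30.8% of the 13 genes, while 40.4% of all 13879 genes tested passed, 19.1% of them higher and 21.3% lower. The share called in either direction was thus no larger than the background. All 4 calls were lower, so in that direction 30.8% of the 13 were called, against 21.3% of all genes. Their log2 fold changes (Neoribocic minus DMSO) had a median of -1.48 and ran between -2.08 and -0.58, while the median over all genes was 0.01. At an unadjusted p below 0.05, 7 were lower and 0 higher, while of all 13879 genes 3614 were lower and 3443 higher. DESeq2 called 8 lower and 0 higher, while over all genes it called 22.4% lower and 20.7% higher. With counts corrected for transcript length and GC content, edgeR called MT-ND4L and MT-CO3 lower and no mRNA higher, while 19.2% of all genes were called lower and 17.5% higher. In bulk RNA, fewer cells carrying a transcript and less of it in each cell cannot be told apart, nor can fewer mRNAs per genome and fewer genomes.

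MT-ND4, a subunit of complex I (NADH dehydrogenase), was at 5820 and 7961 CPM with Neoribocic and at 14041 and 44142 CPM with DMSO. Both Neoribocic libraries lay below both DMSO libraries. Its log2 fold change was -2.08 ± 0.56 (SE), with an adjusted p of 0.0287. Every adjusted p given without another name is from the edgeR quasi-likelihood test, adjusted after Benjamini and Hochberg over all genes. MT-ND4L, translated from the same mRNA, was at 1842 and 2063 CPM with Neoribocic and at 3766 and 11324 CPM with DMSO. It fell by 1.95 ± 0.53 on the log2 scale (adjusted p = 0.0327), and its groups were also apart.

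MT-CO1, the catalytic subunit of complex IV (cytochrome c oxidase), was at 15156 and 15980 CPM with Neoribocic and at 21993 and 57828 CPM with DMSO. Its groups were apart, and it fell by 1.36 ± 0.46 (adjusted p = 0.0476). MT-CO3, another core subunit of complex IV, was at 6858 and 7505 CPM with Neoribocic and at 11532 and 28499 CPM with DMSO. It fell by 1.48 ± 0.43 (adjusted p = 0.0285), again without overlap. MT-CO1 missed the threshold with upper-quartile factors (adjusted p = 0.0619), with limma-voom (0.0552) and after the correction (0.0766). MT-ND4 missed it after the correction (0.0557), and MT-ND4L missed it when no count filter was used (0.0562).

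MT-CO2, the complex IV subunit that receives electrons from cytochrome c, did not pass the test. It was at 7926 and 9622 CPM with Neoribocic and at 6578 and 20240 CPM with DMSO, so that the Neoribocic libraries lay between the DMSO ones. Its log2 fold change was -0.61 ± 0.52 (adjusted p = 0.383). MT-ND3 and MT-ND6, both complex I subunits, also overlapped. MT-ND3 was at 1585 and 1802 CPM with Neoribocic and at 1542 and 3537 CPM with DMSO (adjusted p = 0.258). MT-ND6 was at 615 and 574 CPM with Neoribocic and at 477 and 1596 CPM with DMSO (adjusted p = 0.329). The sources used here do not say whether counting used strand, and without strand, heavy-strand RNA antisense to MT-ND6 would be counted as MT-ND6.

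The remaining 6 genes had both Neoribocic libraries below both DMSO libraries but did not pass the test. Among complex I subunits, MT-ND1 was at 2089 and 2481 CPM with Neoribocic and at 3014 and 10754 CPM with DMSO (log2 fold change -1.59, adjusted p = 0.0990). MT-ND2 was at 4019 and 5806 CPM with Neoribocic and at 8059 and 25312 CPM with DMSO (-1.76, adjusted p = 0.0537). MT-ND5 was at 4296 and 3928 CPM with Neoribocic and at 4361 and 15753 CPM with DMSO (-1.29, adjusted p = 0.145). The gap between the groups was narrowest for MT-ND5 among these 3.

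MT-CYB, the only complex III subunit that mtDNA encodes, was at 3838 and 4562 CPM with Neoribocic and at 5623 and 16623 CPM with DMSO (-1.41, adjusted p = 0.0726). MT-ATP6, which lines the proton path of the ATP synthase, was at 1350 and 1454 CPM with Neoribocic and at 2082 and 7315 CPM with DMSO (-1.75, adjusted p = 0.0809). MT-ATP8, from the same mRNA, was at 939 and 1810 CPM with Neoribocic and at 2031 and 6779 CPM with DMSO (-1.68, adjusted p = 0.115). In all, 10 of the 13 genes had groups apart with Neoribocic lower, which held for 37.3% of all genes tested.

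The calls depended on single libraries in both groups. Without DMSO replicate 1, when DMSO replicate 2 alone stands for DMSO, the log2 fold changes of the 13 genes ran between -2.68 and -1.06. Without DMSO replicate 2, the calls were 2, MT-ND4 and MT-ND4L, while 16.8% of all genes were called lower. The log2 fold changes were then smaller in size, at -1.02 for MT-ND4, -0.94 for MT-ND4L, -0.70 for MT-ND2 and -0.67 for MT-CO3. MT-ATP6 was at -0.56, MT-ATP8 at -0.55, MT-CO1 at -0.49, MT-CYB at -0.41, MT-ND1 at -0.39 and MT-ND5 at -0.07. Those of MT-CO2, MT-ND3 and MT-ND6 were above 0, at 0.43, 0.15 and 0.33, and none of these 3 passed the test. Without Neoribocic replicate 1 the log2 fold changes of the 13 ran between -1.86 and -0.47, and without Neoribocic replicate 2 between -2.32 and -0.68. None of the 13 was called by edgeR in either of these fits. Over all genes, too, calls in both directions were fewest without Neoribocic replicate 1 among the fits that left out a library. MT-CO1 and MT-CO3 had adjusted p of 0.106 and 0.0501 without DMSO replicate 2. In each of these fits the lone library is assumed to vary as the others do. MT-ND4 and MT-ND4L thus had the largest falls against either DMSO library, although they were not called with 1 Neoribocic library. They share an mRNA, so they do not count as separate mRNAs.

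**Figure D2:**
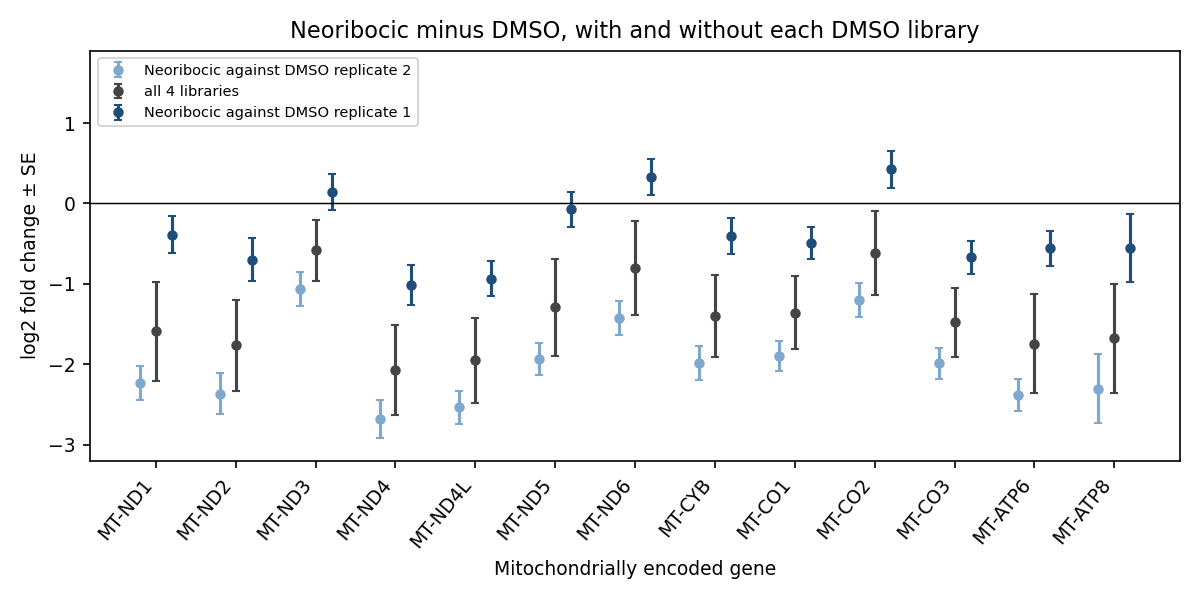
Log2 fold change (Neoribocic minus DMSO) ± SE of each mitochondrially encoded gene, against DMSO replicate 2 alone, in all 4 libraries, and against DMSO replicate 1 alone. MT-ND4 and MT-ND4L are called lower in all 3 fits, while MT-CO2, MT-ND3 and MT-ND6 lie above 0 against DMSO replicate 1.

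Each gene was also taken as a percent of the summed counts of the 13, which leaves out all other RNA of the library. MT-CO2 made up 14.1% and 14.7% of mitochondrial mRNA counts with Neoribocic and 7.73% and 8.11% with DMSO. Its mean share was 14.4% ± 0.43 with Neoribocic and 7.92% ± 0.27 with DMSO (SD, n = 2 each), a 1.82-fold difference. MT-ND4 made up 10.3% and 12.1% with Neoribocic and 16.5% and 17.7% with DMSO, with means of 11.2% ± 1.28 and 17.1% ± 0.83. For both genes the distance between the groups exceeded the distance between replicates, and the 2 DMSO libraries lay close together although their mitochondrial totals differed.

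MT-ND3 held 2.81% and 2.75% with Neoribocic and 1.81% and 1.42% with DMSO, a share 1.72-fold higher with Neoribocic. MT-ND6 held 1.09% and 0.876% with Neoribocic and 0.561% and 0.639% with DMSO, 1.64-fold higher. MT-CYB was apart in the same direction by a small margin, at 6.81% and 6.96% with Neoribocic and 6.61% and 6.66% with DMSO. The first 2 and MT-CO2 are the 3 mRNAs whose levels overlapped between the groups, and an mRNA that falls less than the sum of the 13 gains share by construction.

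A further 3 genes had lower shares without overlap, as MT-ND4 did. MT-ND4L held 3.27% and 3.15% with Neoribocic and 4.43% and 4.53% with DMSO. MT-ND2 held 7.13% and 8.86% with Neoribocic and 9.47% and 10.1% with DMSO. MT-ATP6 held 2.40% and 2.22% with Neoribocic and 2.45% and 2.93% with DMSO. The shares of the other 5 genes (MT-ND1, MT-ND5, MT-CO1, MT-CO3 and MT-ATP8) overlapped. MT-CO1, the most abundant by counts, held 26.9% and 24.4% with Neoribocic and 25.8% and 23.2% with DMSO. In sum 4 genes were apart higher, 4 apart lower and 5 overlapped, and no exact permutation p over 2 against 2 libraries can go below 0.333. Without DMSO replicate 2 the 8 genes that were apart kept their direction, with differences (Neoribocic minus DMSO) of 6.64 percentage points for MT-CO2, -5.26 for MT-ND4, -1.47 for MT-ND2, -1.22 for MT-ND4L and 0.97 for MT-ND3. For MT-ND6, MT-CYB and MT-ATP6 they were 0.42, 0.28 and -0.14. Across all genes tested, the groups did not overlap in CPM for 75.1%. That is another measure than these shares, which are tied to each other within a library, so it is not their direct background.

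**Figure D3:**
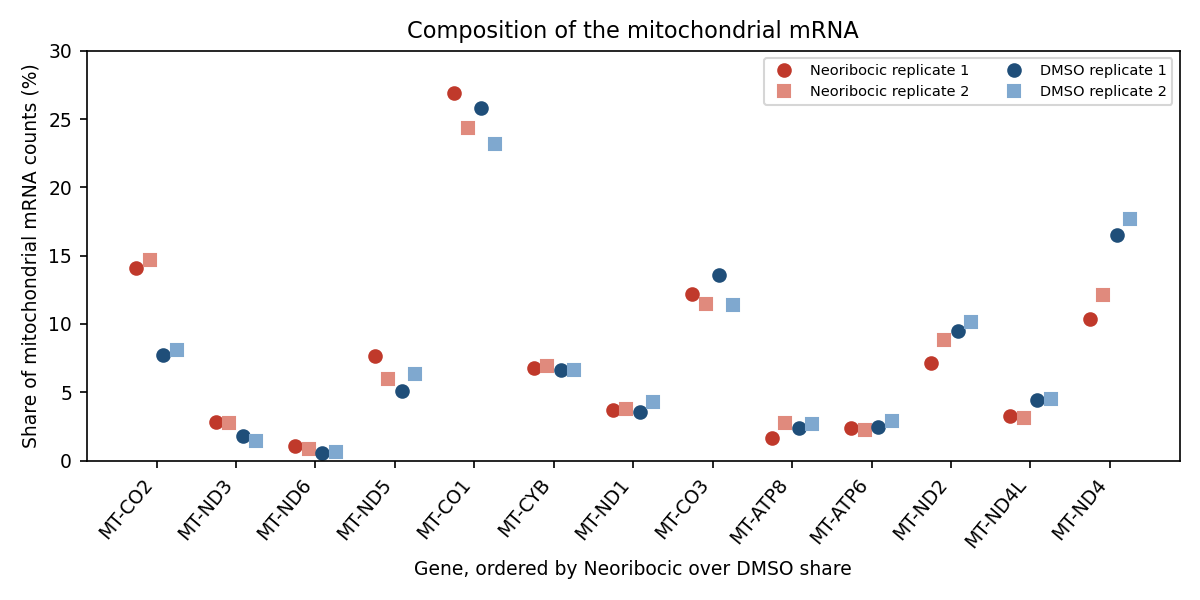
Share of each gene in the summed counts of the 13 mitochondrially encoded genes (percent), 1 point per library, ordered by the ratio of Neoribocic over DMSO. MT-CO2 lies at 14.1% and 14.7% with Neoribocic against 7.73% and 8.11% with DMSO, MT-ND4 lies the other way, and the replicates of each group sit close together for both.

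By complex, the 7 complex I genes held 35.97% and 37.6% with Neoribocic and 41.4% and 45.02% with DMSO. The 3 complex IV genes held 53.1% and 50.5% with Neoribocic and 47.1% and 42.7% with DMSO. Their groups were apart in opposite directions, and within complex IV MT-CO2 was apart while the shares of MT-CO1 and MT-CO3 overlapped. Ranked by complex I share, or from high to low by complex IV share, the 4 libraries stand in the order of their mitochondrial share of all counts, and whether composition moves with that share was not tested. The 2 ATP synthase genes held 4.06% and 4.98% with Neoribocic and 4.83% and 5.64% with DMSO, which overlapped.

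Ratios between single mRNAs, chosen after their values were seen, set these genes side by side. There were 1.36 and 1.21 counts of MT-CO2 per count of MT-ND4 with Neoribocic, and 0.468 and 0.459 with DMSO, a 2.77-fold difference (1.47 on the log2 scale). The correction for length and GC content left 1.12 on the log2 scale. Of the genes that share an mRNA, MT-ND4L per MT-ND4 was 0.317 and 0.259 with Neoribocic and 0.268 and 0.257 with DMSO, and MT-ATP8 per MT-ATP6 was 0.696 and 1.25 with Neoribocic and 0.975 and 0.927 with DMSO. The ratios of both pairs overlapped between the groups. MT-ND6 per MT-ND5, its neighbour on the opposite strand, was 0.143 and 0.146 with Neoribocic and 0.109 and 0.101 with DMSO. After the correction that difference was -0.02 on the log2 scale.

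Per length, the order of the mRNAs also differed. In TPM, MT-CO2 was the highest of the 13 with Neoribocic, at 22440 and 32134 TPM. With DMSO it was at 22483 and 47434 TPM, below 5 others. These were MT-CO1 at 33342 and 60116 TPM, MT-CO3 at 34388 and 58271 TPM, MT-ND4L at 29647 and 61117 TPM, MT-ND4 at 23821 and 51349 TPM, and MT-ATP8 at 22933 and 52497 TPM. MT-CO1 was second with Neoribocic, at 19034 and 23674 TPM. MT-ND6 was the lowest of the 13 in every library, at 2270 and 2500 TPM with Neoribocic and 2124 and 4874 TPM with DMSO. TPM of the shortest genes, MT-ATP8 and MT-ND4L, rests on few bases, part of them shared with a neighbour.

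Of the 23 nuclear factors, all passed the filter on low counts, 1 rose, 5 fell and 17 did not pass the test. These 6 are 26.1% of the factors, against the 40.4% of all genes tested that were called. Their median log2 fold change was 0.01, the same as the median of all genes tested. POLRMT rose, while MTERF1, LRPPRC, PNPT1, FASTKD2 and MGME1 fell. The groups were apart for 14 of the 23, with Neoribocic higher for 5 and lower for 9, against 37.8% and 37.3% of all genes tested. None of the 6 called factors showed the difference between the DMSO libraries that marked the mitochondrial genes.

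**Figure D4:**
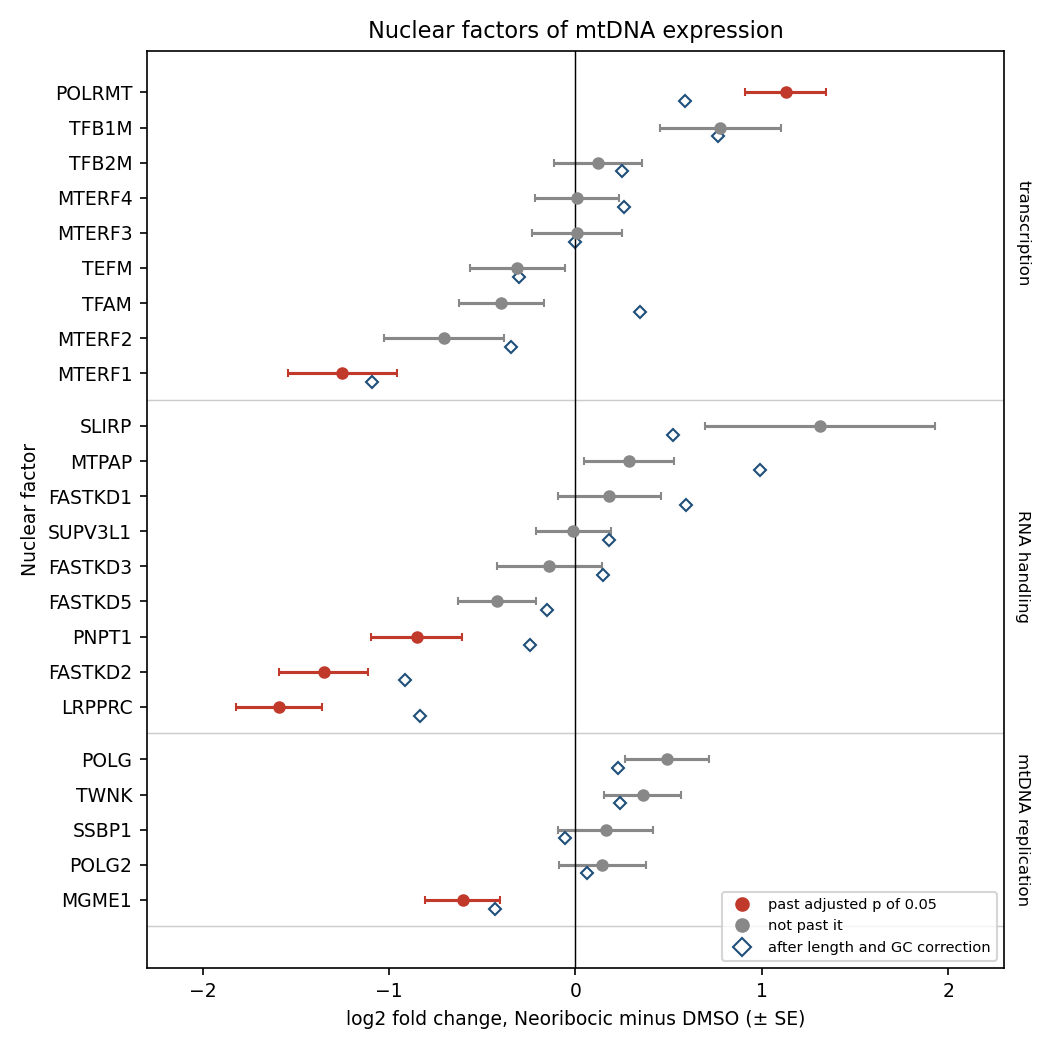
Log2 fold change (Neoribocic minus DMSO) ± SE of the 23 nuclear factors, grouped by role, with filled points for the value in all 4 libraries and open diamonds for the value after the correction for transcript length and GC content. POLRMT is the factor called higher, and the 5 called lower are spread over the 3 roles.

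Of the 9 transcription factors and polymerase genes, 1 rose, 1 fell and 7 did not pass. POLRMT, the mitochondrial RNA polymerase, was at 157 and 117 CPM with Neoribocic and at 66.4 and 59.1 CPM with DMSO. Both Neoribocic libraries lay above both DMSO libraries, and it rose by 1.13 ± 0.22 on the log2 scale (adjusted p = 0.00500). After the correction for length and GC content the rise was 0.58 (adjusted p = 0.0421), and it was called under each of the 17 alternatives tried.

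The promoter of POLRMT is shown because it carries matches to recognition letters of 2 nuclear activators of mitochondrial genes. It runs from 250 bases before to 50 bases after the gene's start in RefSeq, chr19:633488-633787 on the - strand of GRCh38.p14. Capitals mark an NRF1 core (GCGCATGCG) present on both strands in one run of letters, and an ETS core (CCGGAAGT, the kind bound by GABPA) on the other strand.
POLRMT promoter: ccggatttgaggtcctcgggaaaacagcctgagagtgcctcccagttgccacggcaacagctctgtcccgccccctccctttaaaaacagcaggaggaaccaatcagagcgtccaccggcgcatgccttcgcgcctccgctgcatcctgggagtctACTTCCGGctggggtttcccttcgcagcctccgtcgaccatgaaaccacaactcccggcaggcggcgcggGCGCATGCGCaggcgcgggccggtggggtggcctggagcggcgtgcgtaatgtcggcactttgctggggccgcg

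Promoters of 20 of the 23 nuclear factors were matched by symbol, those of MTERF3, TWNK and FASTKD5 not being among them, and both strands were searched. The NRF1 core was in 4 of the 20 (TFB1M, TFB2M, POLRMT and MTPAP) and in 1.92% of all 35116 promoters in the table. Counted by gene symbol among those in the count table, 3.11% had it. The ETS core was in 5 (POLRMT, TEFM, MTERF1, MTERF4 and SSBP1), with 4.14% over all promoters and 7.10% of the symbols in the count table. A YY1 core (AAGATGGCG) was in 2 (SLIRP and SSBP1), with 1.75% over all promoters and 3.29% of those symbols. Of the 4 factors with the NRF1 core, POLRMT rose, and TFB1M, TFB2M and MTPAP, which did not pass the test, had log2 fold changes of 0.78, 0.12 and 0.29. Of the 5 with the ETS core, POLRMT rose and MTERF1 fell (-1.25). TEFM, MTERF4 and SSBP1 did not pass, at -0.31, 0.01 and 0.16. With the YY1 core, SLIRP (1.31) and SSBP1 did not pass. Whether any core goes with a change was not tested. A match describes letters in a window and is not a measured binding site.

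MTERF1, which binds mtDNA downstream of the ribosomal RNA genes and can end transcription there, was at 2.71 and 3.77 CPM with Neoribocic and at 8.26 and 7.16 CPM with DMSO. It fell by 1.25 ± 0.29 (adjusted p = 0.0113) without overlap between the groups. Without Neoribocic replicate 1 the call was lost (adjusted p = 0.0991). Its relative MTERF2 was at 3.27 and 5.56 CPM with Neoribocic and at 7.64 and 6.77 CPM with DMSO (log2 fold change -0.70, adjusted p = 0.110). MTERF3, a repressor of mtDNA transcription in the mouse, and MTERF4, needed for mitochondrial ribosome assembly, had log2 fold changes of 0.01 each, with SEs of 0.24 and 0.22. In MTERF4 51.0% of exon bases lie opposite exons of another gene, so its counts are uncertain if strand was not used.

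TFAM, which packages mtDNA and opens its promoters, was at 61.2 and 80.1 CPM with Neoribocic and at 105 and 80.9 CPM with DMSO. The groups were barely apart, and the log2 fold change was -0.40 ± 0.23 (adjusted p = 0.193). After the correction for length and GC content it was 0.34, in the other direction. TFB1M, which methylates the small mitochondrial ribosomal RNA, was at 11.3 and 10.6 CPM with Neoribocic and at 8.26 and 4.48 CPM with DMSO (0.78 ± 0.32, adjusted p = 0.0850). TFB2M, the initiation factor, was at 19.9 and 19.4 CPM with Neoribocic and at 20.3 and 15.8 CPM with DMSO (0.12 ± 0.23). TEFM, the elongation factor, was at 9.13 and 9.08 CPM with Neoribocic and at 12.9 and 9.70 CPM with DMSO (-0.31 ± 0.25). In TEFM 26.1% of exon bases lie opposite exons of other genes. Apart from POLRMT, the factors of initiation and elongation thus did not pass the test.

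Of the 9 RNA handling factors, 3 fell, 0 rose and 6 did not pass edgeR's test. At an unadjusted p below 0.05, 0 were higher, and DESeq2 called 1 higher, SLIRP. LRPPRC, which stabilises mitochondrial mRNAs and keeps them polyadenylated, was at 43.3 and 51.0 CPM with Neoribocic and at 165 and 119 CPM with DMSO. It fell by 1.59 ± 0.23 (adjusted p = 0.00172), and the highest Neoribocic library was well below the lowest DMSO library. After the correction for length and GC content it fell by 0.84 (adjusted p = 0.0108), and it was called under all 17 alternatives. Its promoter, chr2:43995940-43996239 on the - strand of GRCh38.p14 in RefSeq, is shown beside that of POLRMT because LRPPRC was called lower under every alternative. None of the 3 cores was in this window, so no letters are in capitals.
LRPPRC promoter: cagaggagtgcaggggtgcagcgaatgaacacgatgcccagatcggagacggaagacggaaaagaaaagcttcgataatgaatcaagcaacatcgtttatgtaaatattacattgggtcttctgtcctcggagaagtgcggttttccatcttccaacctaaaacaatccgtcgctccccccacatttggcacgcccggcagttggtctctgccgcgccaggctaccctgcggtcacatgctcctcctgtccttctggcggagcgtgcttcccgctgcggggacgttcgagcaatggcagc

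SLIRP, the RNA-binding partner of LRPPRC, was at 145 and 41.5 CPM with Neoribocic and at 40.1 and 35.0 CPM with DMSO. One Neoribocic library was far above the other 3, while the second lay just above the DMSO libraries. The log2 fold change was 1.31 ± 0.62 (adjusted p = 0.157). Without Neoribocic replicate 1 it was 0.15 (adjusted p = 0.715), and without Neoribocic replicate 2 it was 1.95 (adjusted p = 0.00432). The value therefore rests on Neoribocic replicate 1, and the direction of SLIRP relative to LRPPRC was not tested.

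PNPT1, the polynucleotide phosphorylase that degrades mitochondrial RNA, was at 20.1 and 25.8 CPM with Neoribocic and at 46.3 and 36.6 CPM with DMSO. It fell by 0.85 ± 0.24 (adjusted p = 0.0237), without overlap. The correction for length and GC content ended that call (-0.24, adjusted p = 0.243), as did leaving out DMSO replicate 1 (0.113) or Neoribocic replicate 1 (0.149). SUPV3L1, the helicase that works with it, was at 44.3 and 46.8 CPM with Neoribocic and at 47.4 and 44.4 CPM with DMSO, overlapping values with a log2 fold change of -0.01 ± 0.20.

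MTPAP, the polymerase that adds the poly(A) tails, was at 32.0 and 45.03 CPM with Neoribocic and at 32.8 and 30.3 CPM with DMSO (0.29 ± 0.24, adjusted p = 0.360). Its groups overlapped. With the correction for length and GC content it was called higher (0.99, adjusted p = 0.00786), and 13.4% of its exon bases lie opposite another gene's exons and 19.7% in exons of other genes on the same strand.

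The FASTKD proteins are a family of mitochondrial RNA-binding proteins, and 1 of the 4 listed fell. FASTKD2, which acts on the large ribosomal RNA and on specific mRNAs, was at 9.68 and 11.9 CPM with Neoribocic and at 25.8 and 29.3 CPM with DMSO. It fell by 1.35 ± 0.24 (adjusted p = 0.00355), was apart between the groups and was called under all 17 alternatives, with adjusted p up to 0.0347. FASTKD5, which processes mRNA ends that no transfer RNA flanks, was at 38.2 and 39.8 CPM with Neoribocic and at 56.5 and 48.0 CPM with DMSO (-0.42 ± 0.21, adjusted p = 0.135). FASTKD1 was at 9.51 and 11.7 CPM with Neoribocic and at 11.1 and 7.62 CPM with DMSO, and FASTKD3 at 6.83 and 8.47 CPM with Neoribocic and at 9.84 and 7.01 CPM with DMSO. Both overlapped between the groups, with log2 fold changes of 0.18 and -0.14.

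**Figure D5:**
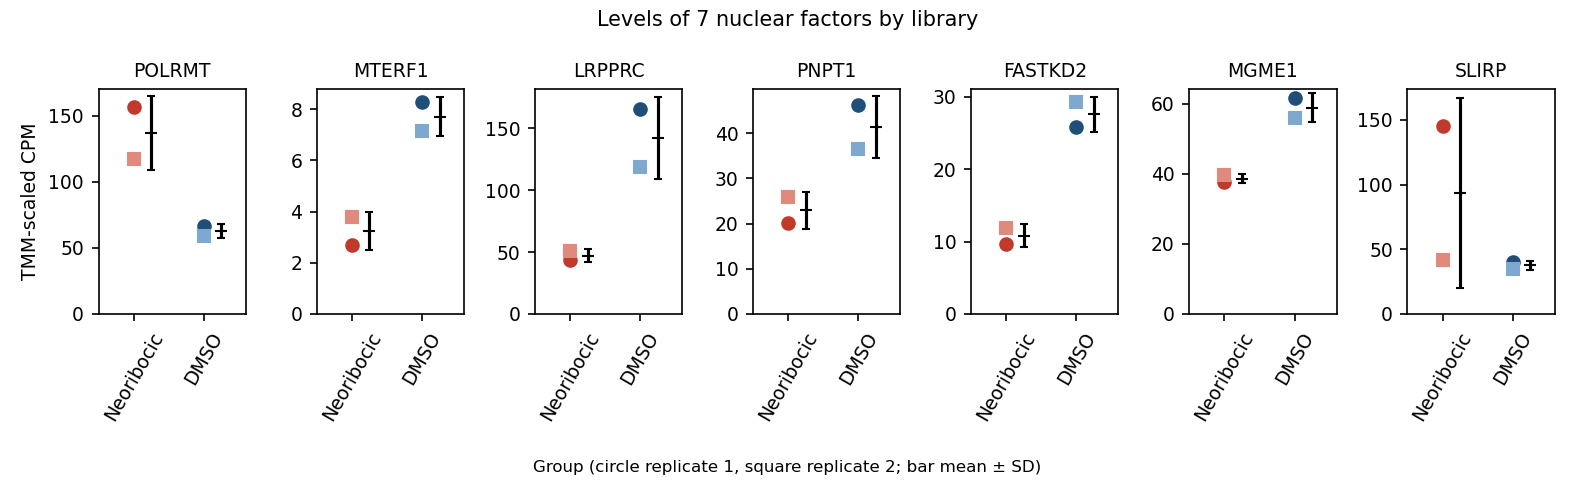
Levels in TMM-scaled CPM of the 6 nuclear factors called and of SLIRP, with circles for replicate 1, squares for replicate 2 and bars for the mean ± SD (n = 2), Neoribocic left of DMSO. The 6 called factors have no overlap between groups, while SLIRP has 1 Neoribocic library at 145 CPM and the other at 41.5 CPM.

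Of the 5 replication factors 1 fell and 4 did not pass. MGME1, a nuclease that trims the ends of newly copied mtDNA, was at 37.7 and 39.6 CPM with Neoribocic and at 61.7 and 55.9 CPM with DMSO. It fell by 0.61 ± 0.20 (adjusted p = 0.0428), but leaving out any 1 of the 4 libraries ended the call, with adjusted p between 0.0840 and 0.178. POLG, the catalytic subunit of the mtDNA polymerase, was at 70.3 and 62.3 CPM with Neoribocic and at 53.7 and 40.6 CPM with DMSO (0.49 ± 0.22, adjusted p = 0.109). TWNK, the replicative helicase, was at 41.0 and 39.4 CPM with Neoribocic and at 32.0 and 30.6 CPM with DMSO (0.36 ± 0.21, adjusted p = 0.191). For POLG and TWNK the Neoribocic libraries were above the DMSO ones without passing the test.

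POLG2, the accessory subunit of the polymerase, was at 16.9 and 14.7 CPM with Neoribocic and at 15.4 and 13.2 CPM with DMSO (0.14 ± 0.23). SSBP1, which coats single-stranded mtDNA, was at 68.4 and 45.9 CPM with Neoribocic and at 57.1 and 45.1 CPM with DMSO (0.16 ± 0.26). Their groups overlapped. The number of mtDNA copies was not measured.

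Other genes of mitochondrial gene expression and upkeep were read from 5 further lists, 87 genes in all, each tested. Of these 20 rose, 11 fell and 56 did not pass, so that 35.6% were called, against 40.4% of all genes tested. After the correction for length and GC content 17 were called higher and 16 lower, so the larger number of rises depended on that setting. Over all genes tested, 19.1% were called higher and 21.3% lower, and after the correction 17.5% and 19.2%. The counts of each list below are to be read against these shares. The median log2 fold change of the 87 was 0.01, as over all genes.

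Of 32 other genes of mitochondrial RNA processing and modification, 11 rose and 3 fell (43.8% called, against 40.4% of all genes tested). After the correction 8 were called higher and 6 lower. PUS1, a pseudouridine synthase, was at 23.4 and 27.3 CPM with Neoribocic and at 11.8 and 13.05 CPM with DMSO, and rose by 1.03 ± 0.23 (adjusted p = 0.00918). NSUN4, a methyltransferase of the small mitochondrial ribosomal RNA, rose by 0.93 ± 0.22 (adjusted p = 0.0107). MRM3, a methyltransferase of the large ribosomal RNA, and RPUSD3, a pseudouridine synthase, rose by 1.06 and 0.92, but after the correction for length and GC content neither was called (adjusted p = 0.0743 and 0.667). Without Neoribocic replicate 1, adjusted p was 0.0550 for MRM3 and 0.108 for RPUSD3, and without DMSO replicate 1 it was 0.0757 for RPUSD3. In MRM3 34.9% of exon bases lie opposite another gene's exons.

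PTCD3, a protein of the small mitochondrial ribosomal subunit, was at 35.2 and 36.8 CPM with Neoribocic and at 113 and 77.7 CPM with DMSO, and fell by 1.41 ± 0.24 (adjusted p = 0.00312). MTO1, a transfer RNA modification enzyme, was at 18.0 CPM in both Neoribocic libraries and at 37.2 and 36.7 CPM with DMSO, and fell by 1.04 ± 0.21 (adjusted p = 0.00674). PRORP, the nuclease that cuts the 5′ ends of mitochondrial transfer RNAs, fell by 0.68 ± 0.23 (adjusted p = 0.0416), and this call was lost without any 1 of the 4 libraries (adjusted p between 0.0642 and 0.163). PTCD3 and MTO1 were called after the correction too. In PRORP 40.9% of exon bases lie in exons of another gene on the same strand.

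Of 22 other genes of mtDNA upkeep and nucleotide supply, 3 rose and 2 fell (22.7% called, against 40.4% of all genes tested). After the correction 4 were called higher and 6 lower. SLC25A33, a pyrimidine nucleotide carrier of the inner membrane, was at 20.1 and 21.0 CPM with Neoribocic and at 8.88 and 9.85 CPM with DMSO, and rose by 1.13 ± 0.23 (adjusted p = 0.00594). DGUOK, which phosphorylates purine deoxynucleosides in mitochondria, rose by 0.88 ± 0.21 (adjusted p = 0.0117). TYMP, thymidine phosphorylase, rose by 1.49 ± 0.45 (adjusted p = 0.0302) at no more than 2.97 CPM, and was not called after the correction (adjusted p = 0.197). OPA1, the inner membrane fusion protein, was at 37.9 and 55.7 CPM with Neoribocic and at 182 and 126 CPM with DMSO, and fell by 1.72 ± 0.27 (adjusted p = 0.00260). DNA2, a nuclease and helicase of the nucleus and mitochondria, fell by 1.39 ± 0.23 (adjusted p = 0.00300). The calls of DGUOK and TYMP were lost without DMSO replicate 1 (adjusted p = 0.0503 and 0.106) and without Neoribocic replicate 1 (0.0755 and 0.241). OPA1 and DNA2 were called after the correction and without each library.

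Of 14 factors of mitochondrial translation, 2 rose and 4 fell (42.9% called, against 40.4% of all genes tested), and after the correction 2 were called in each direction. MTFMT, which formylates the initiator methionyl transfer RNA, was at 20.2 and 17.7 CPM with Neoribocic and at 7.36 and 7.81 CPM with DMSO, and rose by 1.32 ± 0.23 (adjusted p = 0.00372). TUFM, the elongation factor Tu, rose by 0.85 ± 0.20 (adjusted p = 0.0115), a call that the correction ended (adjusted p = 0.119). MTIF3, an initiation factor, was at 14.0 and 16.5 CPM with Neoribocic and at 36.4 and 34.3 CPM with DMSO, and fell by 1.22 ± 0.23 (adjusted p = 0.00439). GUF1, MTIF2 and GFM1, of which the last is an elongation factor G, fell by 1.10, 0.85 and 0.71, and the correction left MTIF2 called but not GUF1 (adjusted p = 0.0919) or GFM1 (adjusted p = 0.374). Without Neoribocic replicate 1, TUFM, GUF1, MTIF2 and GFM1 were not called, with adjusted p of 0.0853, 0.0600, 0.144 and 0.155. Calls were also lost without DMSO replicate 1 for MTIF2 (0.108) and GFM1 (0.168), without DMSO replicate 2 for TUFM (0.0510), and without Neoribocic replicate 2 for GFM1 (0.0932).

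Of 11 regulators of mitochondrial biogenesis, 1 rose and 1 fell (18.2% called, against 40.4% of all genes tested). After the correction 2 were called higher and 0 lower. NRF1, the activator whose core letters stand in the POLRMT promoter above, was at 35.1 and 30.5 CPM with Neoribocic and at 19.3 and 20.03 CPM with DMSO, and rose by 0.74 ± 0.22 (adjusted p = 0.0285). The call was lost without any 1 of the 4 libraries (adjusted p between 0.0518 and 0.140). GABPA, the ETS factor, was at 15.3 and 17.9 CPM with Neoribocic and at 35.1 and 24.1 CPM with DMSO, and fell by 0.83 ± 0.26 (adjusted p = 0.0332), which the correction reduced to -0.12 (adjusted p = 0.619). GABPA missed the threshold, too, when DMSO replicate 1 was left out (0.171) and with either Neoribocic library alone (0.169 and 0.0726).

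Of 8 mitochondrial proteases 3 rose and 1 fell, and after the correction 1 was called higher and 2 lower. LONP1, the matrix protease that can degrade TFAM, was at 277 and 251 CPM with Neoribocic and at 155 and 135 CPM with DMSO, and rose by 0.87 ± 0.19 (adjusted p = 0.00837). HTRA2 and SPG7 rose by 0.78 and 0.58, with adjusted p of 0.0470 and 0.0482. After the correction LONP1, HTRA2 and SPG7 were not called (adjusted p = 0.0713, 0.374 and 0.337), and without Neoribocic replicate 1 they were not called either (0.0578, 0.301 and 0.0997). HTRA2 was also lost without DMSO replicate 1 (0.102) or 2 (0.160), and SPG7 without any 1 library, with adjusted p up to 0.184. In HTRA2 36.9% of exon bases lie opposite another gene's exons. OMA1, an inner membrane protease that cuts OPA1, was at 6.62 and 6.55 CPM with Neoribocic and at 15.6 and 16.2 CPM with DMSO, and fell by 1.27 ± 0.23 (adjusted p = 0.00429), also after the correction and without each library.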

How the data were processed

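The deposited table holds whole-number counts per Ensembl gene, which the authors left without normalization, as the values show. The sources used here do not give the aligner, the counter, its use of strand or the human build, and the submitters' processing notes name only mouse builds although the IDs are human. Of 20263 IDs, 20148 were found in the table of gene names and 20224 in GENCODE release 29. Counts below 20 were even in 62.3% to 65.4% of cases, against 50.3% to 51.3% of counts of 20 to 200, so read pairs may be counted as 2 and counting precision may be below what the totals imply.

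After filterByExpr by group and TMM scaling, Neoribocic was tested against DMSO with edgeR 4.0.16 in R 4.3.3 (robust quasi-likelihood fit with the group as its only term). Benjamini-Hochberg adjustment ran over the 13879 genes that passed, and a gene was called at an adjusted p below 0.05. The SE of a log2 fold change is its absolute value over the square root of the F statistic. Levels are TMM-scaled CPM. TPM used 1 GENCODE transcript per gene. Shares were compared by exact two-sided permutation over libraries. The correction for length and GC content fitted a smooth surface of log2 CPM in each library (mgcv 1.9.3) and entered it as offsets, for 13862 genes. DESeq2 1.42.0, limma-voom (limma 3.58.1), other scalings and filters, halved counts, the replicate number as a block and each library left out in turn were the alternatives. With expected counts from raw library totals, replicates differed beyond counting noise in 63.5% of genes with Neoribocic and 67.8% with DMSO. Differences in mitochondrial share and read pairs counted as 2 may enter these percentages. All 4 libraries were kept as separate. The members and lists were chosen with earlier results of these data known. Of each further list, up to 4 genes per direction with the smallest p among those called are named. Promoter sequences are from RefSeq.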

Additional observations from a re-analysis of the deposited data

How the results depend on the processing

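The 4 lower calls among mitochondrial genes became 8 with DESeq2, 9 without edgeR's robust option, 9 with the replicate number as a block, 2 with the correction for length and GC content, 9 with block and correction together (chosen after seeing the data), and 0 to 13 with single libraries left out. For nuclear factors, the 1 higher call became 3 with upper-quartile factors, 2 with DESeq2, 3 with the block, 2 with the correction, 2 with both, and 1 to 2 with libraries left out. The 5 lower calls became 3 with library totals only, 3 with block and correction together, and 2 to 4 with libraries left out. Of the further lists, 20 higher and 11 lower calls became 4 to 18 and 6 to 10 with libraries left out, and 7 lower with library totals only, and with the correction they were 17 and 16. Over all genes, 2650 higher and 2960 lower calls became 1001 to 2215 and 1467 to 2382 with libraries left out, the lowest of each without Neoribocic replicate 1. The labels do not say what a shared replicate number means, and deviations of same-numbered libraries correlated at -0.05 over 13879 genes. It also called TFB1M and SLIRP higher and left MGME1 uncalled. Over all genes, lower calls were 3105 with DESeq2, 2908 without the robust option and 2917 with the block, against the 2960 above. They were 2660 with the correction, 2505 with block and correction, and 2149 with library totals only. Higher calls over all genes were 3329 with upper-quartile factors, 2869 with DESeq2 and 2677 with the block, against the 2650 above. They were 2420 with the correction and 2315 with both. The cause of each shift was not tested.

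Direction changed for the genes that follow, and none of them was called in the direction opposite to its value in all 4 libraries. With the correction, log2 fold changes were 0.15 for FASTKD3, -0.0035 for MTERF3, -0.058 for SSBP1, 0.18 for SUPV3L1 and 0.34 for TFAM. With block and correction they were 0.15 for FASTKD3, -0.0096 for MTERF3, -0.065 for SSBP1, 0.18 for SUPV3L1 and 0.35 for TFAM. With library totals they were 0.018 for FASTKD3 and 0.16 for SUPV3L1, with upper-quartile factors 0.11 for SUPV3L1, and with the filter at 1 CPM 0.0011 for SUPV3L1. With libraries left out, log2 fold changes ran from -1.06 to 0.15 for MT-ND3, -1.43 to 0.33 for MT-ND6, -1.21 to 0.43 for MT-CO2 (each lower end called, without DMSO replicate 1), -0.038 to 0.31 for TFB2M, -0.15 to 0.20 for MTERF3, -0.10 to 0.12 for MTERF4, -0.049 to 0.037 for SUPV3L1, -0.050 to 0.47 for FASTKD1, -0.35 to 0.12 for FASTKD3 and -0.15 to 0.42 for SSBP1. Differences in composition (percentage points, Neoribocic minus DMSO) ran from -0.56 to 0.20 for MT-ND1, -0.20 to 2.48 for MT-CO1, -1.74 to 0.40 for MT-CO3 and -0.88 to 0.21 for MT-ATP8. Per length, the MT-ND6 share differed by 0.62 points, against 0.38 by counts, and the mitochondrial share of all RNA by -19.4 points, against -8.69 by counts. Upper-quartile factors and library totals moved the median log2 fold change of all genes to 0.13 and 0.18, against 0.01 with TMM, and the share of nuclear factors called higher is to be read against that shift.

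With 2 libraries in a group, the spread rests on few samples, and a difference in shares cannot reach a permutation p below 0.333. Each mitochondrial gene was at least 2.29-fold higher in DMSO replicate 2 than in DMSO replicate 1, which bears on every test of these genes. Genes at a few CPM, such as MTERF1 and MTERF2, carry more relative counting error than nuclear factors with higher counts.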
